A study of Homo sapiens with 12 samples.

Results

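IL1A, IL1B, IL6, IL24, CXCL8, CXCL1, CXCL2, CCL2, PTGS2 and ICAM1 are inflammatory genes that senescent and stressed cells are known to turn on together. The 10 genes were chosen by symbol from the 36675 genes listed in at least 1 of 2 tables of read counts. Their resistant-against-parental and line-against-line values in these libraries were known when they were chosen. The fold changes and calls of the 10 are therefore a description of these libraries, given without p-values. All 10 had a row in the A375 table and 9 in the CHL1 table, which does not list CCL2.

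The tables hold RNA sequencing of A375 and CHL1, established human melanoma lines, and of their palbociclib-resistant derivatives A375AR991 and CHL1AR991, with 3 libraries in each of 4 groups. Palbociclib inhibits the cell cycle kinases CDK4 and CDK6, and CDK4/6 inhibition is known to induce a senescence-like arrest. A375AR991 arose under rising drug concentrations over 7 months and CHL1AR991 over 3 months. Both derivatives were then kept at 4 µM, while parental cells grew in the same medium without drug. Drug-free medium for 72 h before RNA extraction is recorded for all 12 samples, so the resistant cells were not under drug when sampled. The labels say neither whether a derivative is a clone nor whether the 3 libraries of a group came from separate cultures. The adjusted p-values below measure the spread between these libraries, which may be technical.

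The 2 forms of interleukin-1 sit at the top of this programme. IL1A is an alarmin that is active without processing and IL1B is cut to its active form by caspase-1, and both act through the receptor IL1R1 to switch on the transcription factor NF-kappaB. NF-kappaB, together with C/EBP-beta and AP-1, drives the neutrophil chemokines CXCL8, CXCL1 and CXCL2, the monocyte chemokine CCL2, the cytokine IL6, the adhesion molecule ICAM1 and the prostaglandin synthase PTGS2. IL24 is a cytokine of the IL-10 family first found in melanoma cells. In senescent cells the secreted part of this set is called the senescence-associated secretory phenotype, and in melanoma CXCL8 and CXCL1 are long known as autocrine growth factors.

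The sequences just upstream of the start sites show how alike some of these genes are at their promoters, and they are printed for 3 related chemokines of unlike level and for ICAM1, IL6 and PTGS2. They are RefSeq sequences of GRCh38.p14, 5′ to 3′ on the strand of the gene, ending at the base before the start site, and 9 of the 10 members had an entry (not CCL2). Capitals mark matches on either strand to the kappa-B consensus, to its core variant GGAATTTCC, to the AP-1 site TGANTCA and to the TATA box TATAAA. The core variant overlaps the consensus, and it was picked because kappa-B sites of this form are known in several of these genes.
CXCL1, chr4:73869243-73869392, plus strand: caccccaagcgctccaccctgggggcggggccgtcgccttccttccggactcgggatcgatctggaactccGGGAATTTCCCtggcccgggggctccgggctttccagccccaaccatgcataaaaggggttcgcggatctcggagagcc
CXCL2, chr4:74099196-74099345, minus strand: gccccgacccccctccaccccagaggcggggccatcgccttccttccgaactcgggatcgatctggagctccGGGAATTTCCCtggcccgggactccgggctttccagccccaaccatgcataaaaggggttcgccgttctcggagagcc
CXCL8, chr4:73740419-73740568, plus strand: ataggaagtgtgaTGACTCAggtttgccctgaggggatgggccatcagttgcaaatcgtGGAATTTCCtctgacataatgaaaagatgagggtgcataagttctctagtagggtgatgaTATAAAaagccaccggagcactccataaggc
ICAM1, chr19:10270870-10271119, plus strand: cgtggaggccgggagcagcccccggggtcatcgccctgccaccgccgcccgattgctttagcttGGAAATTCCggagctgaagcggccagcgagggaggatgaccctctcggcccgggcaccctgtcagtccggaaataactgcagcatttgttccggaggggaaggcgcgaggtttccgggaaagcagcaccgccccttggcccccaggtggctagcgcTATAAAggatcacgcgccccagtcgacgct
IL6, chr7:22727050-22727199, plus strand: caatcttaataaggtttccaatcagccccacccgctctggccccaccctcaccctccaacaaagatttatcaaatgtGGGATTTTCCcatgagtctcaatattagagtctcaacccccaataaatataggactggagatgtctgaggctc
PTGS2, chr1:186680424-186680573, minus strand: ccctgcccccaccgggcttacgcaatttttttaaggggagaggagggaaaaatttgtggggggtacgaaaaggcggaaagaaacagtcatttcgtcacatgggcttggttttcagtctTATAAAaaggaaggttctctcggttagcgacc

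Over the 250 bases upstream, the core variant GGAATTTCC was found in 4 of the 9 members (CXCL8, CXCL1, CXCL2 and ICAM1) and in 0.428% of 27305 promoters. The kappa-B consensus was found in 3 of 9 members (CXCL1, CXCL2 and IL6) and in 5.05% of all promoters. TGANTCA was found in 2 of 9 members (IL1A and CXCL8) and in 6.60% of all promoters, and TATAAA in 4 of 9 (IL1A, CXCL8, PTGS2 and ICAM1) and in 11.1%. The TATAAA of CXCL8, PTGS2 and ICAM1 lay between -32 and -25 from the start site, and that of IL1A far upstream at -239 to -234. The kappa-B match lay at -79 to -70 from the start site in CXCL1 and at -78 to -69 in CXCL2, and the printed windows of the pair share an identical stretch of 42 bases. IL6 carried GGGATTTTCC at -73 to -64. No match to the kappa-B forms was found in the windows of IL1A, IL1B, IL24 and PTGS2. A match is a run of letters and was not measured as a bound site.

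Total counts ran from 25398920 to 29812686 per library, and 3 counts stood for 0.101 to 0.118 CPM (the count over the library's total, per 1000000). Of 11 melanoma markers 6 to 9 reached a mean of 1 CPM per group, with SOX10 between 308 and 1008 CPM, while the pigment cell genes PMEL and MLANA stayed at or near 1 CPM or below in all 4 groups and TYR was not listed for A375. The leukocyte marker list summed to 59.5 to 86.1 CPM in A375, most of it CD68 (60.8 CPM in parental and 64.7 CPM in resistant cells), with PTPRC at 0.244 CPM in parental and 0.190 CPM in resistant cells. CD3E and CD3D had 0 counts in resistant A375. In CHL1 the list summed to 10.95 to 12.4 CPM, of which PTPRC made 9.14 CPM in parental and 8.91 CPM in resistant cells. Endothelial markers summed to 16.5 to 20.8 CPM in parental and 18.2 to 23.8 CPM in resistant A375, and to 7.19 to 9.20 and 7.71 to 7.86 CPM in CHL1, with PECAM1 and ERG not listed. Keratinocyte and epithelial markers summed to 414 to 508 CPM in parental and 503 to 567 CPM in resistant A375, where 1 of 5 tested genes rose and 2 fell (KRT14 and KRT5). They summed to 31.0 to 34.1 CPM over the CHL1 libraries, where 1 of 5 tested genes rose and 2 fell. Of the melanoma markers 2 of 9 tested rose and 1 fell in A375, and 1 of 11 rose and 3 fell in CHL1. Of the leukocyte markers 2 of 5 tested fell in A375 (CSF1R and LYZ) and 0 of 3 changed in CHL1. Over all genes tested 13.4% rose and 14.8% fell in A375, and 9.50% rose and 11.5% fell in CHL1. The part of these marker changes in the levels of the 10 genes was not tested.

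The first comparison asked how the 10 genes stood in resistant against parental A375. Resistant A375 carried more mRNA of IL1A, of the chemokines CXCL8 and CXCL1, of PTGS2 and of ICAM1, and less of IL24 and CCL2. IL1B and CXCL2 did not pass the threshold, and IL6 had too few counts to be tested. A gene was called at an edgeR adjusted p below 0.05 over all genes tested, and 7 of the 9 tested members were called, beside 28.3% of the 18086 genes tested. The 5 called higher stand beside 13.4% of all tested genes and the 2 called lower beside 14.8%. Fold changes are log2 values, resistant over parental, ± SE. The median over the 9 tested members was 0.94, against -0.00 over all genes tested.

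IL1A, the alarmin, had 6.02, 4.85 and 3.29 CPM in parental replicates 1, 2 and 3 and 18.5, 20.9 and 34.9 CPM in the resistant ones. The lowest resistant library lay above the highest parental one, and the resistant group was spread by its replicate 3. The log2 fold change was 2.38 ± 0.28. IL1B, its neighbour on chromosome 2, read 1.18, 1.22 and 1.66 CPM in parental and 1.11, 1.31 and 2.29 CPM in resistant libraries. The groups overlapped, and the log2 fold change of 0.19 ± 0.29 did not pass and ran from -0.17 to 0.38 without each library in turn. The transcripts of IL1A and IL1B share no identical stretch longer than 11 bases.

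CXCL8, the chemokine also called interleukin-8, had 8.78, 11.03 and 6.01 CPM in parental libraries and 60.0, 46.2 and 44.4 CPM in resistant ones. The 2 groups lay far apart relative to the spread within each, and the log2 fold change was 2.53 ± 0.20. CXCL1 had 23.5, 30.3 and 25.3 CPM in parental and 62.9, 44.9 and 45.0 CPM in resistant libraries, and the log2 fold change was 0.94 ± 0.15. Resistant replicate 1 was the highest library for both chemokines. CXCL2, a close relative of CXCL1, had 0.827, 1.11 and 0.530 CPM in parental and 0.662, 1.17 and 1.43 CPM in resistant libraries. Its groups overlapped, and the log2 fold change of 0.38 ± 0.34 did not pass. CXCL1 and CXCL2 transcripts share an identical stretch of up to 77 bases, and 60 of 1048 windows of 50 bases in CXCL1 (5.7%) occur in CXCL2. The split of reads between the 2 genes is uncertain for such shared stretches.

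CCL2, the monocyte chemokine, moved the other way, with 1.26, 1.87 and 0.946 CPM in parental and 0.487, 0.604 and 0.376 CPM in resistant libraries. Every resistant library lay below every parental one, and the log2 fold change was -1.47 ± 0.32. IL24 had 30.2, 62.1 and 20.01 CPM in parental and 6.34, 15.7 and 6.77 CPM in resistant libraries. Its levels were spread in both groups, with replicate 2 the highest in each, and the groups did not overlap. The log2 fold change of -1.97 ± 0.45 became -1.39 without parental replicate 2 and -2.52 without resistant replicate 2, and the call held in each case. IL6 was read by 17 counts over the parental and 10 over the resistant libraries, a ratio by depth of 0.539 with a 95% exact counting interval of 0.221 to 1.25.

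PTGS2, the inducible cyclooxygenase that makes prostaglandin precursors, had 1.02, 2.10 and 0.757 CPM in parental and 8.25, 24.9 and 11.9 CPM in resistant libraries. Replicate 2 was the highest library in each group. The log2 fold change was 3.52 ± 0.48, the highest of the tested members, and ran from 2.95 to 4.06 when each library was left out. ICAM1, which binds leukocyte integrins, had 28.2, 23.1 and 23.8 CPM in parental and 73.4, 46.8 and 61.4 CPM in resistant libraries, a log2 fold change of 1.26 ± 0.16. Of all 10 members, 7 had groups that did not overlap, beside 43.0% of all genes tested.

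**Figure D1:**
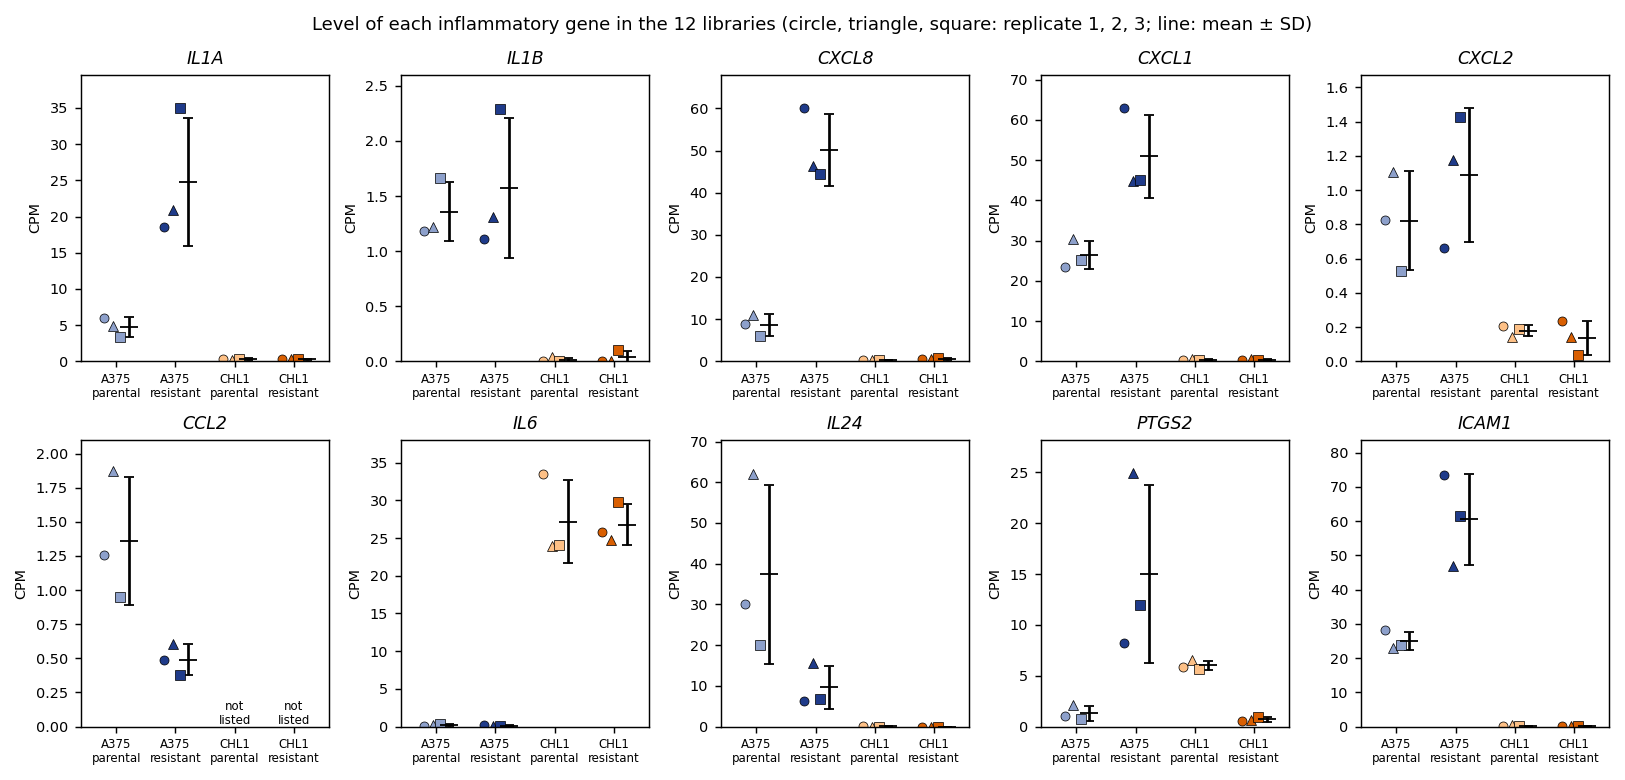
Level of each of the 10 genes in CPM (y axis, from 0, own scale per panel) in the 4 groups, with 1 point per library (circle, triangle and square for replicates 1, 2 and 3) and the mean ± SD. IL1A, CXCL8, CXCL1, PTGS2 and ICAM1 stand higher and IL24 and CCL2 lower in resistant than in parental A375, IL6 is read in CHL1 at 23.9 to 33.5 CPM, and PTGS2 falls from 5.63 CPM or more to 0.952 CPM or less in CHL1.

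The 20 nearest tested genes along the chromosome that are not members did not share these shifts in most cases. Members were left out as neighbours, so CXCL8, CXCL1 and CXCL2 were not counted around one another, nor IL1B around IL1A. Their median log2 fold change in A375 was -0.03 around IL1A, 0.01 around CXCL8, CXCL1 and CXCL2, 0.06 around IL24 and -0.02 around CCL2. Around PTGS2 it was 0.17, with 7 of 20 neighbours called higher, beside 13.4% of all genes tested. ICAM1 rose although 12 of its 20 neighbours on chromosome 19 were called lower, with a median of -0.44. Over all genes tested 14.8% were called lower.

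Fibroblast markers moved in the same samples. Of 10 fibroblast markers 9 were tested in A375, and 6 rose and 1 fell, beside 13.4% and 14.8% of all genes tested. The list summed to 30.2 to 34.3 CPM in parental and 61.5 to 72.3 CPM in resistant libraries. COL1A2 rose by 5.17 and FAP by 3.46 on the log2 scale, while THY1 stood at 0.166 and 0.177 CPM, and DCN at 1.26 and 0.910 CPM. The part of such cells, or of such a programme within melanoma cells, in the levels of the 10 genes was not tested. In bulk RNA, fewer cells that express a gene and less of its mRNA per cell cannot be told apart.

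In CHL1 most of the programme was at or near the counting floor, and IL6 stood highest. Resistant CHL1 carried less PTGS2 mRNA than parental CHL1, and the IL6 means differed by less than the spread between libraries. Of the 10 members 4 passed the filter on low counts (IL6, PTGS2, CXCL8 and CXCL1), and 1 of them, PTGS2, was called, as lower, beside 21.0% of the 17219 genes tested (9.50% higher and 11.5% lower). The median over the 4 was 0.03, against 0.01 over all genes tested.

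PTGS2 had 5.88, 6.51 and 5.63 CPM in parental CHL1 and 0.508, 0.660 and 0.952 CPM in resistant CHL1. The groups were well apart, with a log2 fold change of -3.08 ± 0.18. Of the 20 nearest tested genes 0 were called higher and 6 lower, with a median of -0.05, beside 9.50% higher and 11.5% lower of all genes tested. Fibroblast markers summed to 18.8 to 24.5 CPM in parental and 13.5 to 16.2 CPM in resistant CHL1, and FAP and THY1 had 0 counts in resistant cells. Of 4 tested fibroblast markers 0 rose and 1 fell, beside 9.50% and 11.5% of all genes tested. Their part in the result was not tested. PTGS2 rose in resistant A375 and fell in resistant CHL1. IL6 had 33.5, 23.9 and 24.1 CPM in parental and 25.8, 24.7 and 29.8 CPM in resistant libraries. The groups overlapped, with a log2 fold change of -0.03 ± 0.12 (-0.12 to 0.15 without each library in turn) and a ratio by depth of 0.980 (95% exact counting interval 0.924 to 1.04).

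CXCL8 had 10, 9 and 6 counts in parental and 12, 13 and 24 counts in resistant CHL1. The groups did not overlap in CPM (0.228 to 0.342 against 0.451 to 0.846), beside 37.4% of all genes tested, but the log2 fold change of 0.96 ± 0.35 did not pass and became 0.61 without resistant replicate 3. CXCL1 had 32 counts over the parental and 34 over the resistant libraries, a log2 fold change of 0.09 ± 0.33 that ran from -0.13 to 0.26 without each library in turn. IL1A had 24 and 22 counts, CXCL2 had 15 and 11, and ICAM1 had 12 and 9, with ratios by depth of 0.925 (95% exact counting interval 0.494 to 1.72), 0.740 (0.307 to 1.72) and 0.757 (0.281 to 1.96). IL1B had 1 count over the parental and 3 over the resistant libraries, and IL24 had 1 and 0. No difference was detectable for these 5 genes at this depth.

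**Figure D2:**
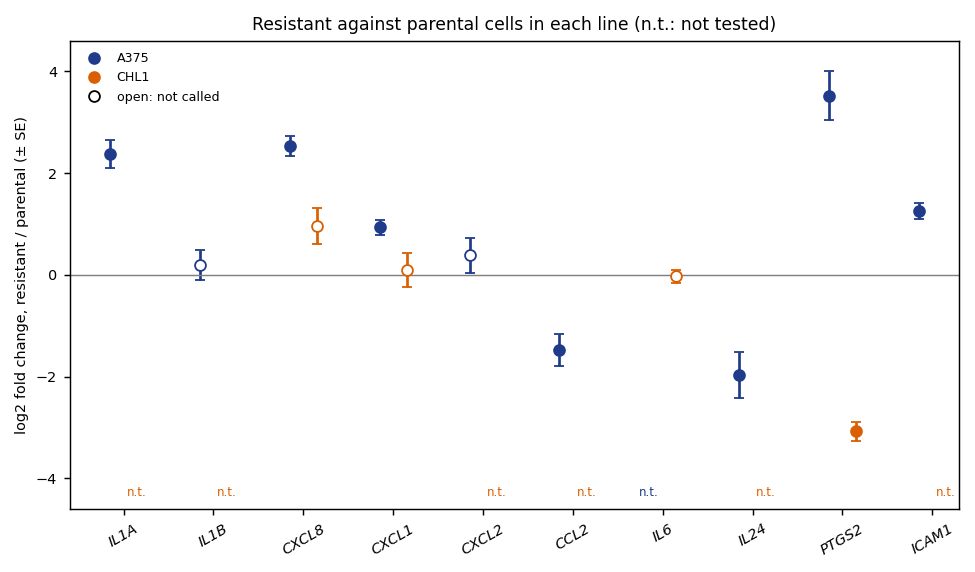
Log2 fold change of resistant over parental cells (y axis, ± SE) for each gene in A375 (blue) and CHL1 (orange), filled where called and open where not, with n.t. for genes not tested. PTGS2 lies at 3.52 in A375 and at -3.08 in CHL1, and IL1A, CXCL8, CXCL1 and ICAM1 lie above 0 and IL24 and CCL2 below 0 in A375.

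The difference between the resistance effects of the 2 lines was fitted over all 12 libraries as CHL1 minus A375. Of 9 members fitted, 2 were called, beside 23.6% of 19241 genes (11.9% higher and 11.7% lower in CHL1). PTGS2 differed by -6.60 ± 0.60 and kept its call without each library in turn. IL1A differed by -2.50 ± 0.77 on few CHL1 counts, and its call was lost without CHL1 parental replicate 1 (-2.24) or 3 (-2.39) or CHL1 resistant replicate 2 (-2.43) or 3 (-2.44). CXCL8 (-1.57 ± 0.61) and CXCL1 (-0.85 ± 0.49) were not called, although CXCL8 was with the DESeq2 test (-1.58) and without A375 parental replicate 2 (-1.82).

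Line against line, IL6 was higher in CHL1 and 7 members were higher in A375, with PTGS2 changing sides. All 9 members fitted were called between the parental lines, beside 75.6% of all genes (37.4% higher and 38.2% lower in CHL1), and between the resistant lines, beside 76.6% (38.6% and 38.0%). A gene read in 1 line alone passes the filter through that line and had to differ, so these counts describe the lines and no more. IL6 had 2281 counts over the parental CHL1 libraries and 17 over the parental A375 libraries, 126-fold by depth (95% exact counting interval 78.2 to 216). In resistant cells it was 228-fold higher in CHL1 (124 to 476).

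Parental A375 exceeded parental CHL1 by depth 174-fold in ICAM1 (99.2 to 337), 68.8-fold in CXCL1 (48.6 to 101), 28.7-fold in CXCL8 (19.3 to 44.7), 16.4-fold in IL1A (10.8 to 25.9) and 4.56-fold in CXCL2 (2.57 to 8.62). The intervals in parentheses cover counting error only and leave out the spread between libraries. For ICAM1, 9 of the 12 counts in parental CHL1 came from replicate 2, and the fitted log2 difference of -7.29 became -8.62 without it. IL24 had 2922 counts in parental A375 and 1 in parental CHL1, and IL1B had 106 and 1. In resistant cells the distance of A375 above CHL1 was 555-fold for ICAM1 (292 to 1214), 124-fold for CXCL1 (88.7 to 179), 84.9-fold for CXCL8 (64.1 to 115), 92.0-fold for IL1A (60.6 to 147) and 8.13-fold for CXCL2 (4.34 to 16.9). IL24 had 830 counts in resistant A375 and 0 in resistant CHL1, at least 269-fold higher against a floor of 3 counts over the group. PTGS2 was 4.65-fold higher in parental CHL1 (3.75 to 5.81) and 21.4-fold higher in resistant A375 (16.4 to 28.2).

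Levels can be compared roughly between genes per kilobase of exon, with the length of all annotated exons of a gene joined, from GENCODE release 29. This length exceeds that of the longest coding transcript by unlike amounts. It was 3096 against 1631 bases for IL1B and 1296 against 1097 bases for CXCL1, so the order between genes is approximate. In parental A375, CXCL1 (20.4 ± 2.74 CPM per kb, SD, n = 3) and IL24 (18.9 ± 11.1) led and did not differ beyond their spread. They were followed by ICAM1 (6.75 ± 0.741), CXCL8 (3.79 ± 1.11) and IL1A (2.22 ± 0.645), of which CXCL8 and IL1A overlapped, and the 5 other members stood below 1. In resistant A375 the order was CXCL1 (39.3 ± 7.99), CXCL8 (22.1 ± 3.75), ICAM1 (16.3 ± 3.59), IL1A (11.7 ± 4.18), IL24 (4.85 ± 2.67) and PTGS2 (2.85 ± 1.66). The neighbours CXCL8 and ICAM1, ICAM1 and IL1A, and IL24 and PTGS2 overlapped in that order. In CHL1, IL6 stood at 13.1 ± 2.66 in parental and 12.9 ± 1.31 in resistant cells, and PTGS2 followed in parental cells with 1.14 ± 0.0864. The remaining members were at or below 0.316 CPM per kb in CHL1.

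**Figure D3:**
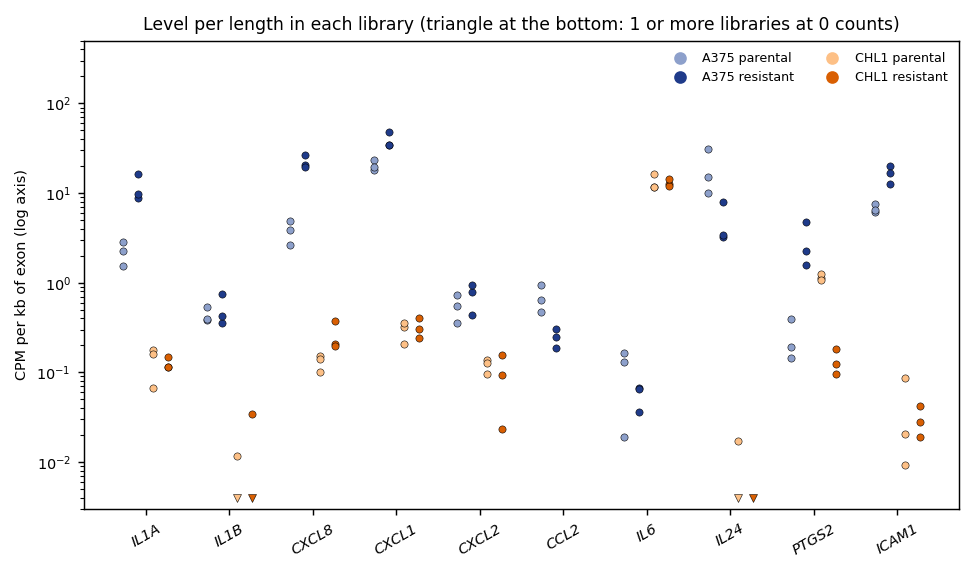
Level per kilobase of exon (y axis, log scale) of each gene in each of the 12 libraries, coloured by group, with a triangle at the bottom where at least 1 library of a group had 0 counts. IL6 has higher points in both CHL1 groups than in A375, and PTGS2 has its higher points in resistant A375 and parental CHL1.

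The genes whose log2 CPM was most correlated with each fitted member were taken over the 12 libraries. All fitted members but PTGS2 stood higher in the same line in parental and resistant cells. A high correlation with them can come from the difference between the lines alone, which was not tested. Among 14871 genes of at least 1 CPM, PTGS2 was nearest to EEIG2 (Pearson r = 0.959), RAP2B (0.9496) and LUM (0.936). IL1A was nearest to PFDN5 (0.992), COL6A3 (0.991) and ITGA1 (0.990), CXCL8 to CLUAP1 (0.994), CDH2 (0.993) and PFDN6 (0.993), and IL6 to SIK1 (0.998), PMP2 (0.997) and UCHL1 (0.997). ICAM1 and CXCL1 had COX7B2 among their 3 nearest genes (0.995 and 0.997). The 12 points share 2 lines and 4 groups, so these values describe likeness in these libraries.

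The genes around the members were taken from lists of the IL-1 pathway, NF-kappaB, other chemokines, other cytokines and growth factors, proteases and binding proteins, receptors, the prostaglandin pathway, transcription factors and senescence markers. In A375 the medians of these lists lay between -0.12 and 0.14 on the log2 scale, and in CHL1 between -0.24 and 0.14. These medians stand over genes that went both ways. Over all genes tested 28.3% were called in A375 (13.4% higher and 14.8% lower) and 21.0% in CHL1 (9.50% and 11.5%). The share called per list ran from 14.3% (receptors) to 63.6% (prostaglandin pathway) in A375. In CHL1 it ran from 18.2% (prostaglandin pathway) to 62.5% (receptors). Adjusted p-values in the following paragraphs are from edgeR over all genes tested. The lists were chosen with earlier results of these data known. Some genes are named for having the smallest adjusted p of their list in these same comparisons. The p-values therefore describe these libraries and are no independent support.

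Of 20 genes of the IL-1 pathway 13 were tested in A375, and 4 rose and 4 fell. The receptor IL1R1 had 0.578 ± 0.0748 CPM in parental and 1.89 ± 0.453 CPM in resistant cells (SD, n = 3). Its log2 fold change was 1.69 ± 0.25 (edgeR adjusted p = 0.00121). The kinase IRAK1, which carries the receptor's signal, changed by -1.36 ± 0.07 (edgeR adjusted p = 5.48e-06) and the IL-33 receptor IL1RL1 by -2.85 ± 0.25 (edgeR adjusted p = 8.54e-05). The antagonist IL1RN was not listed for A375 and had 1 count in the CHL1 table. In CHL1, 1 of 12 tested genes rose and 2 fell, and IL1R1 did not pass (0.44 ± 0.18). The rise was that of IRAK1 (0.17), a call lost without CHL1 parental replicate 1 or 2 or resistant replicate 1 or 2. The resistance effect on IL1R1 differed between the lines by -1.25 ± 0.32 (edgeR adjusted p = 0.0105). For IRAK1 (1.52) and IL1RL1 (3.1) the difference went the other way.

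NF-kappaB subunits and feedback genes moved both ways in A375, with 6 of 19 tested genes up and 4 down. The subunit gene NFKB1 changed by -0.38 ± 0.08 (edgeR adjusted p = 0.0071) and the upstream kinase CHUK by -0.53 ± 0.06 (edgeR adjusted p = 0.000356), while the inhibitor NFKBIB rose by 0.57 ± 0.08 (edgeR adjusted p = 0.000947). RELA (-0.14 ± 0.06), the inhibitor NFKBIA (0.34 ± 0.15) and the feedback enzyme TNFAIP3 (-0.07 ± 0.22) did not pass. In CHL1, 1 of 19 rose and 5 fell. TNFAIP3 stood at 98.5 ± 5.29 CPM in parental and 147 ± 14.3 CPM in resistant cells (SD, n = 3) and was called higher (0.57 ± 0.07, edgeR adjusted p = 0.000109). The adaptor TRAF1 changed by -0.74 ± 0.08 (edgeR adjusted p = 8.11e-05). NFKB1 (-0.02), RELA (0.06) and NFKBIA (-0.25) did not pass in CHL1. NFKBIA passed in A375 without resistant replicate 1 (0.48). In CHL1 it passed with no filter on low counts (-0.26) and stood at 0.05, not called, without parental replicate 1.

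Among 16 other chemokines 7 were tested in A375, with 0 up and 2 down, and 6 in CHL1, with 0 up and 2 down. The falls in A375 were CXCL16 (-0.63) and CCL26 (-1.57), and both calls were fragile. CXCL16 lost its call when any library but parental replicate 3 was left out. CCL26 lost its call when any library but resistant replicate 2 was left out, and with the DESeq2 test. CXCL3, the close relative of CXCL1 and CXCL2, stood at 1.23 ± 0.257 and 1.67 ± 0.545 CPM in parental and resistant A375 (SD, n = 3) and did not pass in either line (0.41 and 0.04). CCL20 (0.676 to 0.851 CPM) did not pass in A375, and CXCL5 had at most 1 count in any library. CXCL12, a chemokine abundant in CHL1, stood there at 294 ± 2.22 CPM in parental and 140 ± 10.6 CPM in resistant cells (SD, n = 3). Its log2 fold change was -1.079 ± 0.05 (edgeR adjusted p = 9.79e-08). Of the chemokine receptors, CXCR1 and CCR2 were not listed and CXCR2 had at most 11 counts in a library. IL6ST, the signalling subunit for IL6, did not pass in either line (0.01 and -0.12). IL6R did not pass in A375 (-0.09), and in CHL1 it rose by 0.40 ± 0.10, a call lost without CHL1 parental replicate 1 (0.34) or 2 (0.37) or resistant replicate 3 (0.35). Over all 18 receptors, 0 of 7 tested rose and 1 fell in A375, and 2 of 8 rose and 3 fell in CHL1.

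In the prostaglandin pathway 4 of 11 tested genes rose and 3 fell in A375. The phospholipase PLA2G4A, which frees the arachidonic acid that PTGS2 uses, had 2.60, 3.32 and 2.27 CPM in parental and 10.5, 14.5 and 11.3 CPM in resistant A375. Its log2 fold change was 2.13 ± 0.18 (edgeR adjusted p = 7.40e-05). The prostaglandin E synthase PTGES rose by 1.05 ± 0.23 (edgeR adjusted p = 0.00833), while the constitutive cyclooxygenase PTGS1 changed by -1.36 ± 0.20 (edgeR adjusted p = 0.00127). In CHL1, 0 of 11 rose and 2 fell. PLA2G4A fell there by 0.58 on the log2 scale (65.0 ± 1.11 to 43.7 ± 1.82 CPM, SD, n = 3) and PTGS1 by 0.31 (757 ± 14.8 to 615 ± 62.2 CPM, SD, n = 3), and PTGES did not pass (-0.26, called at -0.41 without resistant replicate 2). HPGD, which breaks prostaglandins down, was too low to test in A375 (0.244 and 0.481 CPM) and did not pass in CHL1 (-0.22). The difference between lines was -2.71 ± 0.17 for PLA2G4A (edgeR adjusted p = 9.28e-08) and -1.31 ± 0.30 for PTGES (edgeR adjusted p = 0.0047). For PTGS1 the difference went the other way, at 1.05.

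Of 28 other cytokines and growth factors, 8 of 23 tested rose and 3 fell in A375, and 1 of 17 rose and 5 fell in CHL1. The hepatocyte growth factor HGF had 0.0904 ± 0.061 CPM in parental and 2.15 ± 0.0627 CPM in resistant A375 (SD, n = 3). Its log2 fold change of 4.50 ± 0.32 became 5.11 without parental replicate 1. In CHL1 the secreted protein STC1 changed by -1.03 ± 0.09 (edgeR adjusted p = 1.81e-05) and IL32 by -1.39 ± 0.17 (edgeR adjusted p = 0.000129). LIF, of the IL6 family, did not pass in A375 (-0.46 ± 0.16) and rose in CHL1 by 0.37 ± 0.10, a call lost without CHL1 parental replicate 2 (0.30) or resistant replicate 3 (0.26). LIF passed in A375 with the DESeq2 test (-0.46), with no filter on low counts (-0.47), and without parental replicate 1 (-0.61) or resistant replicate 3 (-0.60). Of 25 proteases and binding proteins, 7 of 25 tested rose and 5 fell in A375, and 7 of 19 rose and 3 fell in CHL1. The gelatinase MMP9 rose by 6.00 ± 0.41 in A375, or 6.62 without parental replicate 2, and the matrix protein FN1 rose by 1.78 ± 0.07 in CHL1 (edgeR adjusted p = 1.37e-08). In A375 the log2 fold change of FN1 was 1.72 (1.505 to 1.888 without each library in turn), and the difference between lines was 0.06.

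Of 18 transcription factors, 5 of 18 tested rose and 2 fell in A375, and 2 of 17 rose and 2 fell in CHL1. CEBPB, which encodes C/EBP-beta, did not pass in A375 (0.06 ± 0.09) or CHL1 (0.23 ± 0.10), but passed in CHL1 with no filter on low counts (0.23) and without parental replicate 3 (0.37). GATA4 rose by 0.54 ± 0.09 in A375 (edgeR adjusted p = 0.00206). Of 15 senescence markers, 2 of 13 tested rose and 3 fell in A375, and 1 of 14 rose and 3 fell in CHL1. The cell cycle inhibitor CDKN1A rose in A375 by 0.74 ± 0.08 (edgeR adjusted p = 0.000191) and did not pass in CHL1 (0.13 ± 0.09), and the lines differed by -0.61 ± 0.13 (edgeR adjusted p = 0.00264). CDKN2A, which encodes p16, did not pass in A375 (0.40 ± 0.25, called at 0.72 without parental replicate 3) or CHL1 (0.09 ± 0.08). Lamin B1, LMNB1, which is known to fall in senescent cells, did not pass in A375 (0.09 ± 0.05) and changed in CHL1 by -0.12 ± 0.04, a call lost when each of the 6 libraries was left out (-0.11 to -0.14), with the DESeq2 test (-0.12) and with no filter on low counts (-0.13).

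**Figure D4:**
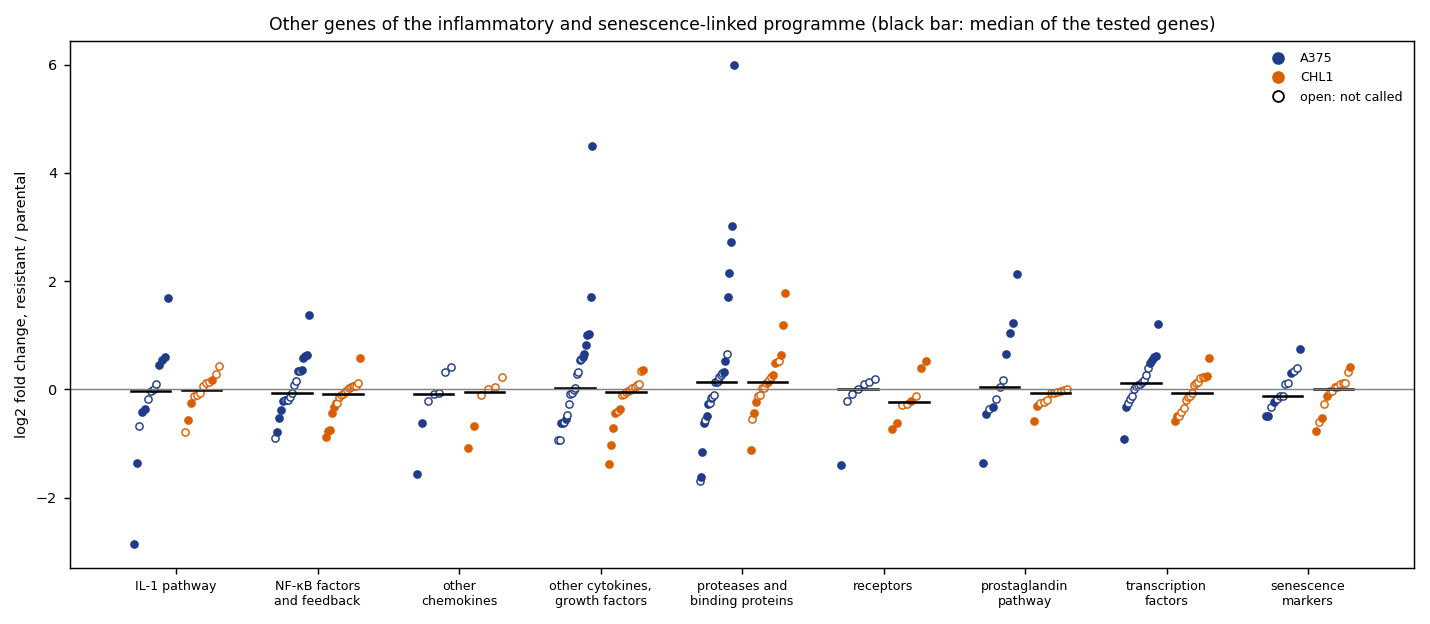
Log2 fold change of resistant over parental cells (y axis) for each tested gene of 9 lists around the members, in A375 (blue) and CHL1 (orange), filled where called and open where not, with the median of each list as a black bar. Most lists hold genes on both sides of 0, and the list medians lie between -0.24 and 0.14.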

How the data were processed

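RNA of 12 libraries, 3 per group, was prepared with a kit that does not mark strand, so reads of overlapping antisense genes cannot be told apart. The authors deposited 2 tables, 1 per line, of raw read counts per Ensembl gene, with 33932 and 32478 genes, and every listed gene has a count in some library. Tools named in the submitters' processing notes are HTSeq 0.5, TopHat2, cutadapt 1.7, CASAVA 1.8.2 and limma. Build and annotation: not given in the sources used here.

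Columns were matched to samples by their header lines. Symbols came from a table of gene names and GENCODE release 29, for 31448 and 30194 identifiers. CPM is the count over the library total, times 1000000. Tests used R 4.3.3 and edgeR 4.0.16 with TMM factors, filterByExpr at a minimum count of 10, and the quasi-likelihood F-test, two-sided, with Benjamini-Hochberg adjustment over all genes tested. Each line was fitted on its own, and contrasts between lines over all 12 libraries and the genes of both tables. The SE is the absolute log2 fold change over the square root of F. Counting intervals are exact (Clopper-Pearson, 95%) and cover counting error only, since these reads are not independent molecules. The fits were tested on simulated data. Alternatives were DESeq2 1.42.0, its size factors, other filters, a replicate block, leaving out each library and, between lines, the genes of either table.

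The members and lists were chosen with earlier results of these data known. Named list genes were 21 chosen for their role and, per list, up to 2 per line with the smallest adjusted p. Similar genes were the 3 with the highest correlation. Figures and intervals used Python 3.11.15.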

Additional observations from a re-analysis of the deposited data

Results flagged for a closer look

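The resistance effect differed between the 2 lines, by the test of the difference over all 12 libraries (log2, CHL1 minus A375, edgeR adjusted p), for 2 of 9 members and 6 of 16 fitted genes chosen for their role. Over all 19241 genes the share was 23.6%, and the share of members (22.2%) did not exceed it. PLA2G4A, named for its small adjusted p within the lines, was called too. The members were PTGS2 (-6.60 ± 0.60), higher in all 3 resistant A375 libraries and lower in all 3 resistant CHL1 libraries, and IL1A (-2.50 ± 0.77), which rests on 24 and 22 counts in CHL1. The IL1A call was lost without CHL1 parental replicate 1 or 3 or CHL1 resistant replicate 2 or 3. Both were chosen with the effects in each line known.

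In the prostaglandin pathway PLA2G4A differed by -2.71 ± 0.17 (edgeR adjusted p = 9.28e-08), with opposite directions in the lines, and PTGES by -1.31 ± 0.30 (edgeR adjusted p = 0.0047). PTGS1, not among the role genes, went the other way by 1.05 (0.93 to 1.17 without each library in turn). Of 14 fitted genes of that pathway 4 were called higher in CHL1 and 3 lower, beside 11.9% and 11.7% of all genes. The receptor IL1R1 differed by -1.25 ± 0.32 (edgeR adjusted p = 0.0105) and CDKN1A by -0.61 ± 0.13 (edgeR adjusted p = 0.00264). In the IL-1 pathway 3 of 14 fitted genes were called higher and 3 lower, with IRAK1 at 1.52 and IL1RL1 at 3.1. LIF differed by 0.83 ± 0.21 (edgeR adjusted p = 0.0093). NFKB1 differed by 0.37 ± 0.10 (edgeR adjusted p = 0.0203), a call lost without A375 resistant replicate 2 (0.28), CHL1 parental replicate 1 (0.33) or CHL1 resistant replicate 3 (0.32). LMNB1 differed by -0.22 ± 0.07 (edgeR adjusted p = 0.0269), a call lost when each of 6 libraries was left out (-0.16 to -0.22) and with no filter on low counts (-0.21).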

How the results depend on the processing

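No member changed its call within a line under the alternatives in which it was tested: other size factors, the DESeq2 test, no filter or a filter of 1 CPM in 3 libraries, a replicate block, or leaving out each library. CCL2 in A375 and CXCL8 and CXCL1 in CHL1 gave no value under the 1 CPM filter, and CXCL8 and CXCL1 in CHL1 were without an adjusted p from DESeq2. The number of members called for the difference between lines ran from 1 to 3, against 2, when each library was left out. It was 3 with the DESeq2 test and 1 without CHL1 parental replicate 1 or 3 or CHL1 resistant replicate 2 or 3, and the cause was not tested. Genes called ran from 3783 to 6307 in A375 and from 2634 to 4339 in CHL1 over the alternatives. Replicate numbers recur across groups. Deviations of same-numbered libraries correlated at 0.263, 0.274 and -0.007 in A375 and at 0.146, 0.007 and 0.033 in CHL1. Libraries of unlike number ran from -0.311 to 0.071 in A375 and from -0.096 to 0.07 in CHL1. Whether same-numbered libraries were prepared together was not tested. With the replicate block 6307 genes were called in A375 and 4339 in CHL1, against 5111 and 3623 without it. Among role genes RELA (-0.14), NFKBIA (0.34) and LIF (-0.46) were then called in A375, NFKBIA (-0.23) in CHL1 and TNFAIP3 (0.62) for the difference between lines. IL1B, IL24, ICAM1 and IL1A lie near the counting floor in CHL1, which limits any statement on their change there.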
